A study of Mus musculus with 6 samples.

Results

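Wnt genes encode secreted signals, and the genes described here are those of the ligands (Wnt), their Frizzled receptors (Fzd) and co-receptors (Lrp5, Lrp6), the secreted antagonists (Sfrp, Dkk, Wif1) and the components inside the cell (Axin1, Axin2, Ctnnb1, Lef1). They were chosen by gene symbol and not by a measured value, although earlier results of these data were known. Every probe set whose platform annotation gives a single symbol of these families was taken. A pair of ligand genes was set aside and is not analysed here. The choice gave 43 genes on 86 probe sets, of 18193 singly named genes and 45037 probe sets that were not controls, and no probe set carried the symbol Tcf7. A gene with several probe sets was represented by the one with the highest mean over all arrays.

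The samples were single embryos at embryonic day 8.5, 3 wild type and 3 littermates heterozygous for Tcof1 (Tcof1+/-), each on its own Affymetrix mouse expression array. Treacle, the product of Tcof1, acts in the nucleolus in making ribosomal RNA, and people with Treacher Collins syndrome often lack a working copy. Neither strain nor form of the mutant allele is stated in the labels. Embryos mix many tissues, so a lower signal from fewer cells of a type and one from less RNA per cell cannot be told apart.

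Wnt ligands bind a Frizzled receptor together with Lrp5 or Lrp6, which stops the Axin complex from destroying beta-catenin, the product of Ctnnb1. Beta-catenin then enters the nucleus and switches on genes with the DNA-binding partners Lef1 and Tcf7, Axin2 among them as a feedback inhibitor. Sfrp and Wif1 proteins bind the ligands outside the cell, and Dkk1 blocks the Lrp co-receptors. At this stage Wnt signals pattern the brain, drive growth of the tail bud and act on the neural crest, and other Wnt signals orient cells through planar cell polarity.

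As deposited, every array had a 2% trimmed mean of 150, and signals are in arbitrary units. Array pairs correlated between 0.952 and 0.959, and 0 pairs held identical values. Replicates 1 and 2 of both genotypes were scanned on a first day and replicate 3 of both on a second. By their Xist signal, wild types 1 and 2 and heterozygote 1 were female and the other embryos male. On the brightest Tcof1 probe set the signal was 211 ± 27.7 in heterozygotes against 387 ± 5.89 in wild types (SD, n = 3 each; limma adjusted p = 0.0347). Fluidics modules were not shared between genotypes, so module and genotype cannot be told apart.

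None of the tested Wnt genes passed the limma test between genotypes, and the differences that came nearest were on the lower side in heterozygotes. The secreted antagonist genes Sfrp2 and Sfrp1, the receptor gene Fzd3 and the ligand gene Wnt8b stood at 64.6%, 77.7%, 82.4% and 66.0% of the wild-type level, on the log2(signal + 1.87) scale used for all differences below. The receptor gene Fzd7 was at 99.7% of wild type, and Axin2, a standard reporter of beta-catenin activity, was at 101% with a wide interval (ratio 0.780 to 1.31). Of the 43 genes, 37 were bright enough to be tested, and in the limma fit over 27022 probe sets 0 of them had an adjusted p under 0.05. The smallest adjusted p was 0.654, and 0.0814% of all tested probe sets passed.

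At an unadjusted p under 0.05, 4 of the 37 genes (10.8%) were lower and 0 were higher, where 3.21% of all tested probe sets were lower and 2.98% higher by the same rule. Each Wnt gene was counted on its brightest probe set, unlike these shares. Over all 66 tested Wnt probe sets, 8 (12.1%) were lower and 1 was higher. All heterozygotes lay below all wild types in 15.2% of these 66 and above in 6.06%. Of the 37 genes, 24 had negative and 13 positive differences, with a median log2 difference of -0.06, against a median of -0.01 and 52.6% negative over 12873 tested genes. By scan day that median was -0.163 and then -0.055. In 6 of the 37 (16.2%) all heterozygotes lay below all wild types, which 6.19% of all tested probe sets did. In 3 (8.11%) all heterozygotes lay above, as did 5.98% of all tested probe sets. When arrays were set to equal medians these counts were 4 and 1, and Lrp6, Fzd8, Fzd6 and Ctnnb1 overlapped. Of all tested probe sets, 5.06% then lay lower and 3.74% higher in all heterozygotes.

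**Figure D1:**
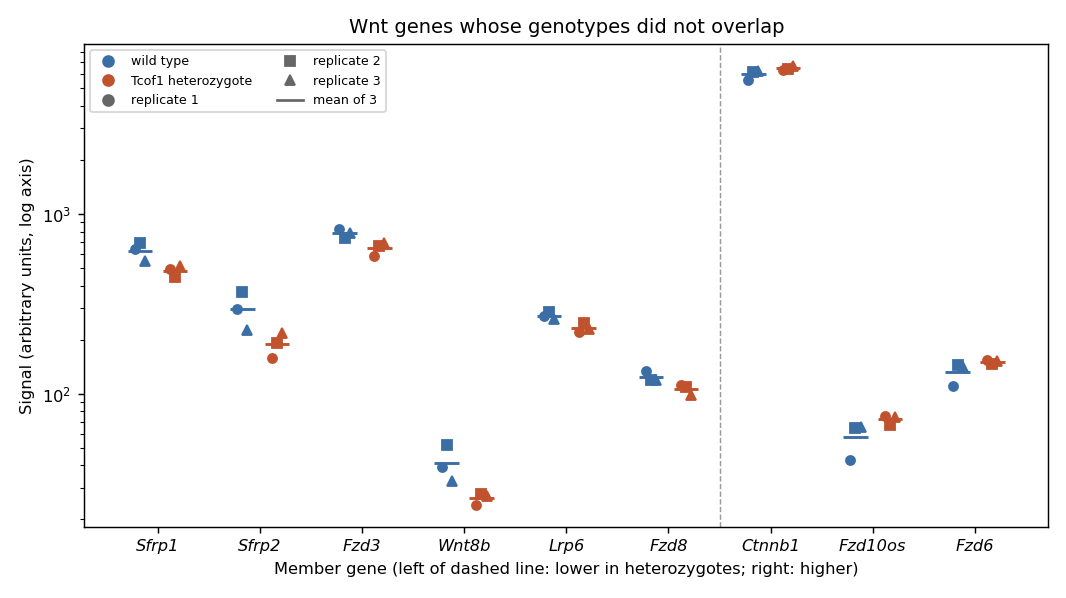
Signal (arbitrary units, log axis) of the 9 Wnt genes whose genotypes did not overlap, with 1 point per embryo, shaped by replicate number, and a line at the mean of 3 embryos. The 6 genes left of the dashed line were lower in all heterozygotes and the 3 on the right higher; levels of different genes are not comparable.

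The secreted antagonists had members on both sides. Of 9 genes 8 were tested, 5 with negative and 3 with positive differences and a median of -0.185. Without heterozygous embryo 1 that median was 0.15, so its sign rested on 1 embryo, and with all probe sets of a gene averaged it was -0.0284.

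Sfrp2, which encodes a secreted protein with a Frizzled-like Wnt-binding domain, had signals of 296, 369 and 226 in wild types 1, 2 and 3. Its signals were 158, 192 and 218 in heterozygotes 1, 2 and 3. All heterozygotes lay below all wild types, although wild type 3 and heterozygote 3 were close. The log2 difference was -0.63 (95% interval -1.04 to -0.22, limma adjusted p = 0.654). By scan day it was -0.92 and then -0.05, and a test of that contrast between days gave an unadjusted p of 0.0224 and an adjusted p of 0.969. In limma 0.0037% of all tested probe sets differed between days at an adjusted p under 0.05. Between female embryos (heterozygote 1 against wild types 1 and 2) the difference was -1.05. Between male embryos (heterozygotes 2 and 3 against wild type 3) it was -0.15.

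Sfrp1, a second gene of this kind, had signals of 642, 689 and 549.6 in wild types 1, 2 and 3. Heterozygotes 1, 2 and 3 were at 495, 449 and 512, all below the wild types. The log2 difference was -0.36 (95% interval -0.60 to -0.13, limma adjusted p = 0.654), with -0.50 and -0.10 by scan day, in that order. Sfrp1 was measured by 5 probe sets, and all 5 gave negative differences, from -0.49 to -0.21. A second bright probe set read 261, 262 and 256 in wild types and 179, 225 and 191 in heterozygotes. By scan day it differed by -0.38 and -0.42, unlike the brightest one. The dimmer ones differed by -0.59 and -0.27, by -0.47 and -0.54, and by -0.26 and -0.12. On 3 of the 5 probe sets the genotypes did not overlap. The one of these at -0.48 carries the suffix that Affymetrix gives to sets with probes that may match other transcripts. Probe sets of a gene are read from the same RNA and are not replicates.

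The Dickkopf genes were on the other side or dim. Dkk1, whose protein blocks Lrp co-receptors and is needed for head formation, was at 109.8, 116 and 193 in wild types 1, 2 and 3. Its heterozygotes 1, 2 and 3 were at 163, 148 and 184, inside the wild-type range. The log2 difference of 0.28 (95% interval -0.19 to 0.74) had a limma adjusted p of 0.860, and by scan day it was 0.45 and -0.07. It was 0.53 without wild type 3, 0.13 without wild type 1 and 0.17 without wild type 2. Dkk3, a divergent member of the family, was at 50.3, 40.7 and 66.0 against 63.9, 62.6 and 58.3, and these ranges overlapped (log2 0.25, adjusted p = 0.867). The Dkk3 difference was 0.09 without wild type 2 and 0.43 without wild type 3.

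The remaining antagonist genes overlapped between genotypes. Sfrp5 differed by -0.21, Sfrp4 by -0.16, Dkk2 by -0.21 and Wif1 by 0.27, each with a 95% interval that spanned 0. A dimmer Sfrp5 probe set gave 0.42, opposite in sign. Dkk4 was at or below 8.47 on every array, under the highest signal of the bacterial control probe sets on the same array, and was not tested.

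Among the ligands, the forebrain gene Wnt8b was the single tested one whose genotypes did not overlap. That is 7.69% of the tested ligand genes with all heterozygotes lower, near the 6.19% of all tested probe sets. With all heterozygotes higher there were 0 ligand genes, against 5.98% of all tested probe sets. Of 17 ligand genes 13 were tested, 11 with negative and 2 with positive differences and a median of -0.09, or -0.278 and 0.135 by scan day. Wnt8b was at 39.05, 52.2 and 32.8 in wild types 1, 2 and 3 and at 24.1, 27.6 and 26.9 in heterozygotes 1, 2 and 3. The heterozygotes lay close together, and the lowest wild type was not far above them. The log2 difference was -0.60 (95% interval -1.16 to -0.04, limma adjusted p = 0.785). By scan day it was -0.76 and -0.27.

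Wnt7b, a ligand of neural and surface epithelia, was at 90.6, 86.4 and 39.5 in wild types 1, 2 and 3. Its heterozygotes 1, 2 and 3 were at 58.1, 33.8 and 54.8. The groups overlapped, since wild type 3 was below heterozygotes 1 and 3. The log2 difference of -0.49 (limma adjusted p = 0.849) was -0.97 and 0.45 by scan day, with an adjusted p of 0.969 for the contrast between days. It was -0.87 without wild type 3, and it was -0.29, -0.32 and -0.26 without wild type 1, wild type 2 and heterozygote 2. A second Wnt7b probe set, too dim to be tested, went the other way. It read 2.84, 2.08 and 4.12 in wild types 1, 2 and 3 and 10.6, 10.7 and 15.2 in heterozygotes 1, 2 and 3.

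Wnt8a and Wnt9a had the largest differences in size but were dim and uneven. Wnt8a, a ligand of the caudal embryo, was at 27.4, 3.00 and 23.2 in wild types 1, 2 and 3 and at 45.0, 32.6 and 16.4 in heterozygotes 1, 2 and 3. Its log2 difference of 1.02 had a 95% interval from -0.47 to 2.50, and without wild-type embryo 2 it was 0.19. Wnt9a was at 16.1, 21.3 and 17.25 in wild types and at 2.66, 18.0 and 16.2 in heterozygotes. Its log2 difference of -0.76 was -0.07 without heterozygous embryo 1, so 1 array set the size of each.

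The other tested ligand genes lay between -0.17 and 0.06 on the log2 scale. Wnt5a, the main ligand of planar cell polarity and of trunk elongation, was at 393, 448 and 456 against 373, 521 and 335 and overlapped (-0.10, 95% interval -0.45 to 0.25). Its dimmer tested probe sets gave 0.24 and 0.05. Wnt7a differed by -0.17, Wnt6 by -0.14, Wnt11 by -0.09 and Wnt4 by -0.06. Dimmer probe sets gave 0.51 for Wnt6, opposite in sign, and -0.23 for Wnt7a, where all heterozygotes lay below all wild types. Wnt5b differed by -0.03, Wnt10a by -0.03, Wnt9b by -0.01 and Wnt2 by 0.06. Wnt4 had opposite signs by scan day, at -0.56 and 0.95, with an unadjusted p of 0.0128 and a limma adjusted p of 0.935 for that contrast. Wnt5b also had opposite signs, at 0.23 and -0.56 (unadjusted p = 0.0259, limma adjusted p = 0.969), and its other probe set was at 0.51 and -0.56 (0.00811 and 0.935). Wnt2b, Wnt3, Wnt10b and Wnt16 were too dim to be tested, with signals of 0.707 to 25.7.

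**Figure D2:**
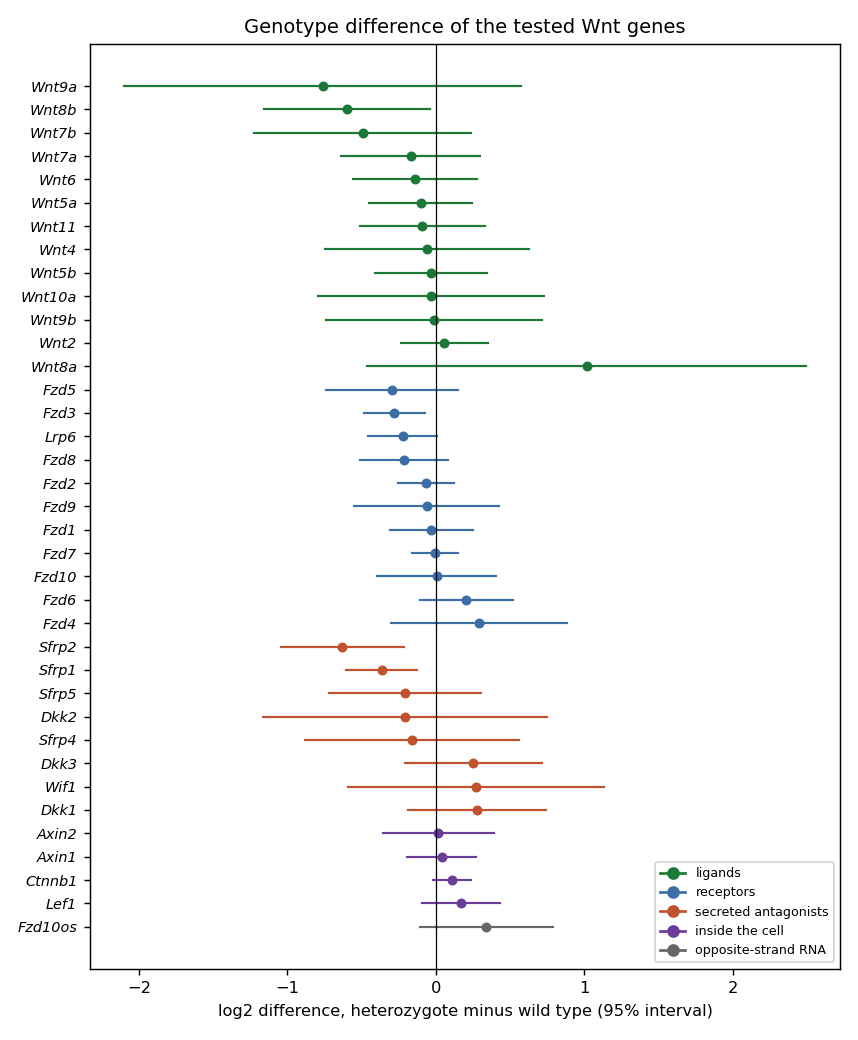
Difference between heterozygotes and wild types on the log2 scale for the 37 tested Wnt genes, with 95% intervals from limma, ordered within role. The intervals of Sfrp2, Sfrp1, Fzd3 and Wnt8b lie below 0, and those of dim genes such as Wnt8a and Wnt9a are wide.

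For Sfrp2 and Wnt8b the sequence before the gene's start is shown, next to that of Axin2 and Dkk1, which are known targets of beta-catenin. Each run is the 250 bases before the start, 5′ to 3′ on the gene's strand, from RefSeq on GRCm38.p6. They lie at chr3:83766071-83766320 (plus strand, Sfrp2), chr19:44493222-44493471 (plus strand, Wnt8b), chr11:108920099-108920348 (plus strand, Axin2) and chr19:30549497-30549746 (minus strand, Dkk1). Capitals mark matches on either strand to CTTTGA, the core that Lef1 and Tcf7 bind, to CATTGT, the core that Sox factors bind, or to GGGCGG, the GC box; no matches overlap in these runs.
Sfrp2: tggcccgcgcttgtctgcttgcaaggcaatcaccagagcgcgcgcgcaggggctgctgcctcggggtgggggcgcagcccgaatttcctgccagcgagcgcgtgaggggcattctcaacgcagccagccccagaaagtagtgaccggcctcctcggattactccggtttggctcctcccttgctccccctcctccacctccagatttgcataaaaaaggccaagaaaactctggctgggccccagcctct
Wnt8b: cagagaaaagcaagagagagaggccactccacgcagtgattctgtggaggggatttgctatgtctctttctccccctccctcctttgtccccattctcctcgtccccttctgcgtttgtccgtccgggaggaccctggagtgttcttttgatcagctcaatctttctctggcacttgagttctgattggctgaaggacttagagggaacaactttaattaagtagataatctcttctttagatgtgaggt
Axin2: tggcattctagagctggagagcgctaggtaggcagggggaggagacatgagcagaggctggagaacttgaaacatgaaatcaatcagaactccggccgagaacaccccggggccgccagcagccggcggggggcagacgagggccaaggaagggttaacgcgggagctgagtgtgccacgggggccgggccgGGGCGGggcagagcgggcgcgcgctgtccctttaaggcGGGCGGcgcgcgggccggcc
Dkk1: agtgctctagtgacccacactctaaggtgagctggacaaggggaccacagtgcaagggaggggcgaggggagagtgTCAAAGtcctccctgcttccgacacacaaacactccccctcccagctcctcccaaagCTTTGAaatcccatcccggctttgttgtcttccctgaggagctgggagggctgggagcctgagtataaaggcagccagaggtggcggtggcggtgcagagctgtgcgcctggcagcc

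These 250 bases held none of the 3 motifs in Sfrp2 and Wnt8b, 2 GC boxes in Axin2 and 2 CTTTGA cores, 1 on each strand, in Dkk1. The sequence table had entries for 27 of the 43 genes, with 34 windows. CTTTGA was in 14.7% of these windows and in 13.8% of all 32851 windows of this length, CATTGT in 5.88% and 10.7%, and GGGCGG in 73.5% and 32.7%. A match is a description of letters and not a bound site, and a missing match concerns this window alone.

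The receptors and co-receptors were close to the wild-type level as a class, with a few members lower. Of 12 genes 11 were tested, 8 with negative and 3 with positive differences and a median of -0.06. In 3 of them, Fzd3, Lrp6 and Fzd8, all heterozygotes lay below all wild types, and in 1, Fzd6, all lay above, where 6.19% and 5.98% of all tested probe sets did so. With equal array medians Fzd3 alone of these 4 did not overlap.

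Fzd3, a receptor needed for axon tracts and, with Fzd6, for neural tube closure, was at 824, 735.5 and 782 in wild types 1, 2 and 3. Heterozygotes 1, 2 and 3 were at 584, 660.4 and 687, all below the lowest wild type. The highest heterozygote and the lowest wild type lay closer together than the range within either genotype. The log2 difference was -0.28 (95% interval -0.48 to -0.07, limma adjusted p = 0.721), with -0.33 and -0.19 by scan day. Of its 5 tested probe sets all gave negative differences, from -0.48 to -0.06, and 2 separated the genotypes. The probe set at -0.48 carries the suffix that Affymetrix gives to sets shared by several transcripts.

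Lrp6, the co-receptor that binds Axin when the pathway is on, was at 271, 285 and 259 in wild types 1, 2 and 3. Heterozygotes 1, 2 and 3 were at 222, 246 and 229, all below the lowest wild type. The log2 difference was -0.22 (95% interval -0.46 to 0.01, limma adjusted p = 0.800). Its dimmer probe set overlapped between genotypes and differed by -0.26. Lrp5, the other co-receptor, was at 0.720 to 12.7 and too dim to be tested.

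Fzd8, a receptor of the anterior neural plate, was at 134, 119 and 119 in wild types 1, 2 and 3 and at 112, 109 and 98.8 in heterozygotes 1, 2 and 3. The groups lay next to each other without overlap (log2 -0.21, 95% interval -0.51 to 0.08, limma adjusted p = 0.838). Fzd5, a receptor of the eye field and of yolk sac, was at 187, 157 and 223 against 206, 128 and 134 and overlapped. Its log2 difference of -0.29 had an adjusted p of 0.850, and by scan day it was -0.08 and -0.73. It was -0.51 without heterozygote 1, and -0.17 without either wild type 3 or heterozygote 2.

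Fzd6, the partner of Fzd3 in planar cell polarity, was at 110.1, 145 and 141 in wild types 1, 2 and 3. Heterozygotes 1, 2 and 3 were at 154, 147 and 152, above all wild types, but wild types 2 and 3 were near them. Its log2 difference was 0.20 (95% interval -0.11 to 0.52, limma adjusted p = 0.853). Fzd10os, an RNA from the strand opposite Fzd10 that the symbol rule also took in, was at 42.8, 64.4 and 65.2 against 74.9, 66.9 and 74.5 (0.34, adjusted p = 0.832). Without wild type 1 the Fzd10os difference was 0.15. Fzd10 itself differed by 0.01 as deposited and by -0.01 with equal array medians.

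The remaining receptors were level or spread widely. Fzd7, a receptor expressed broadly in the early embryo, was at 1144.5, 1186 and 1129 in wild types 1, 2 and 3 and at 1136, 1192 and 1121.5 in heterozygotes 1, 2 and 3. Its ratio of 0.997 had a 95% interval from 0.896 to 1.11, the tightest fold range among the receptors. Fzd2 stood at a ratio of 0.955 (0.837 to 1.09) and Fzd1 at 0.980 (0.808 to 1.19). Fzd9 differed by -0.06 on the log2 scale. Fzd4, a receptor of vessels, ranged from 149 to 340 among wild types and from 227 to 343 among heterozygotes, so a difference of 0.29 could not be told from its spread (adjusted p = 0.880).

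**Figure D3:**
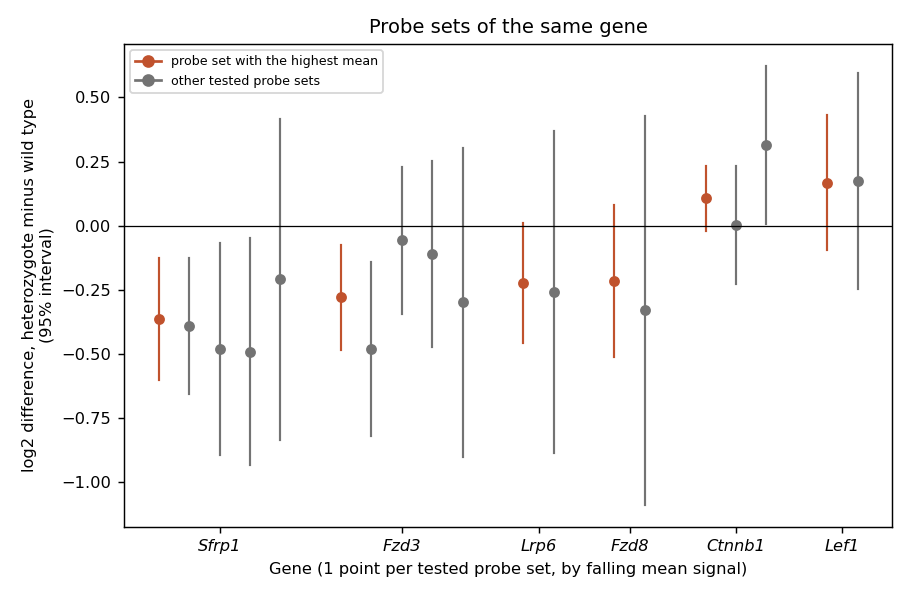
Log2 difference between heterozygotes and wild types on each tested probe set of 6 genes, with 95% intervals from limma; the probe set with the highest mean is in orange. All probe sets of Sfrp1, Fzd3, Lrp6 and Fzd8 gave negative differences, and those of Ctnnb1 and Lef1 gave values at or above 0.

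On their brightest probe sets the pathway genes inside the cell were at or slightly above the wild-type level. All 4 were tested, all had positive differences there, near 0 for Axin1 and Axin2. The median was 0.07, or 0.12 and -0.02 by scan day. Ctnnb1, the gene of beta-catenin, was at 5594, 6201 and 6232 in wild types 1, 2 and 3 and at 6328, 6386 and 6676 in heterozygotes 1, 2 and 3. The heterozygotes lay just above the wild types, which held as deposited but not with equal array medians or after quantile normalization. Without wild type 1 the log2 difference was 0.06 in place of 0.11. The ratio was 1.08 (95% interval 0.985 to 1.18, limma adjusted p = 0.819), and its other probe sets differed by 0.31 and 0.00 on the log2 scale.

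Lef1, a nuclear partner of beta-catenin, was at 276, 236 and 262 in wild types 1, 2 and 3 and at 289, 261 and 322 in heterozygotes 1, 2 and 3. These ranges overlapped, and the log2 difference was 0.17 (95% interval -0.10 to 0.43, limma adjusted p = 0.855). It was 0.105 without wild type 2 and 0.09 without heterozygote 3. Axin2, induced by the pathway it restrains, was at 301, 245 and 389 in wild types 1, 2 and 3. Heterozygotes 1, 2 and 3 were at 357, 278 and 299, within that range. The ratio was 1.01 with a 95% interval from 0.780 to 1.31, and by scan day the log2 difference was 0.21 and -0.38. The wild types spread more than the genotypes differed. Axin1, the scaffold of the complex that destroys beta-catenin, was at 266.5, 283 and 305 against 305, 296 and 276, a ratio of 1.03 (0.875 to 1.21). A dimmer tested Axin1 probe set gave a log2 difference of -0.96 (95% interval -2.62 to 0.71), with heterozygote 2 at 1.11. The dimmer Axin2 probe set gave 0.32 (95% interval -0.92 to 1.57).

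On the brightest probe set, the 95% interval of 5 of the 37 tested genes lay within 1.25-fold of the wild-type level. These were Fzd1, Fzd2, Fzd7, Ctnnb1 and Axin1. They are 13.5% of the tested Wnt genes, where 24.0% of 12873 tested genes had so narrow an interval. For the rest the interval reached past 1.25-fold on at least one side.

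**Figure D4:**
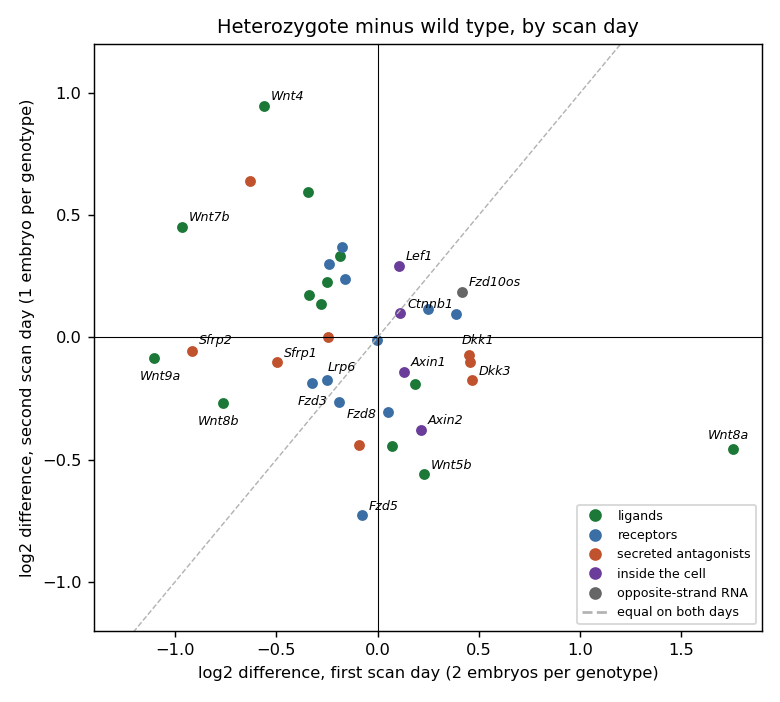
Log2 difference on the first scan day (2 embryos per genotype) against that on the second (1 embryo per genotype) for the 37 tested Wnt genes, coloured by role, with a dashed line where both days are equal. Sfrp2, Wnt7b and Wnt9a lie far left and Wnt8a far right on the first day, and Wnt4 has opposite signs on the 2 days.

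Other genes of the pathway were read from lists that hold no gene described above, and in limma 0 passed in any of them. Of 17 tested genes for Wnt secretion, Wnt agonists and other receptors, 9 were positive and 8 negative (median 0.01). Lgr4, a receptor of R-spondins, read 422 ± 18.8 across wild types against 483 ± 24.6 across heterozygotes (SD, n = 3 each; limma adjusted p = 0.799), and Ptk7, a co-receptor of planar cell polarity, at 29.6 ± 2.85 and 20.2 ± 4.90 (adjusted p = 0.825). Of 11 tested other inhibitors outside the cell or at the membrane, 4 were positive and 7 negative (median -0.03). Sost, an Lrp antagonist, was at 32.5 ± 3.11 and 18.0 ± 0.424 (adjusted p = 0.724), and Apcdd1, a membrane inhibitor of Wnt, differed by -0.20 (adjusted p = 0.849).

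Among 29 tested cytoplasmic genes 15 were positive and 14 negative (median 0.01). Fbxw11, a subunit of the ligase that marks beta-catenin for destruction, was at 3298 ± 193 and 3871 ± 298 (log2 0.23, limma adjusted p = 0.684), and Frat2, an inhibitor of Gsk3, at 164 ± 7.40 and 115 ± 24.6 (-0.52, adjusted p = 0.706). Among 23 tested nuclear genes 11 were positive and 12 negative (median -0.02). Tle1, a corepressor of Tcf factors, was at 302 ± 17.1 and 247 ± 16.5 (adjusted p = 0.754), and Ctnnbip1, which keeps beta-catenin from Tcf factors, at 229 ± 14.3 and 185 ± 9.74 (adjusted p = 0.760).

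Of 18 tested planar cell polarity genes 6 were positive and 12 negative (median -0.11). The mean log2 level of the list, relative to its mean over all arrays, was 0.06, 0.10 and 0.07 in wild types 1, 2 and 3. Heterozygotes 1, 2 and 3 were at -0.004, -0.09 and -0.13, without overlap as deposited. In 2 of the 18 genes (11.1%) all heterozygotes lay below all wild types, and in 2 (11.1%) all lay above. Of all tested probe sets 6.19% and 5.98% did so. Celsr3 had the largest difference of the list (log2 -1.16) and overlapped between genotypes. The list level without Celsr3 was not computed. The atypical cadherin genes Celsr2 (101 ± 9.33 and 77.2 ± 6.83, SD, n = 3) and Celsr3 (41.4 ± 22.7 and 17.4 ± 9.77) had limma adjusted p of 0.779 and 0.784. Of 27 tested known targets of beta-catenin 11 were positive and 16 negative (median -0.02). Id2, an inhibitor of differentiation factors, was at 1455 ± 89.8 and 1810.3 ± 102 (adjusted p = 0.486), and En2, a midbrain and hindbrain gene that is also a neural tube marker, at 79.4 ± 16.4 and 35.4 ± 29.0 (adjusted p = 0.724).

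Mean levels of neural tube markers were lower in all heterozygotes, as were Sfrp1, Sfrp2, Fzd3, Lrp6, Fzd8 and Wnt8b, although Lrp6 and Fzd8 overlapped with equal array medians. Of 20 tested markers 19 were negative and 1 positive, with a median of -0.465, and 0 of the 22 measured ones were below background on every array. Their mean log2 level was 0.34, 0.17 and 0.19 in wild types 1, 2 and 3 and -0.27, -0.38 and -0.06 in heterozygotes 1, 2 and 3. The 2 markers with the smallest p were Lhx2 (log2 -0.96) and Pax6 (-0.58), with limma adjusted p of 0.437 and 0.486. Neural crest markers, 15 negative and 1 positive of 16, ranged from 0.01 to 0.25 in wild types and from -0.26 to -0.03 in heterozygotes. The smallest limma adjusted p among the neural crest markers was 0.066. The part of these tissues in the lower Wnt genes was not tested. All list levels are as deposited and were not computed with equal array medians, so their separation under that scaling is not known. Array medians ran from 21.0 in heterozygote 2 to 25.6 in heterozygote 3.

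The marker levels of the other tissues overlapped between genotypes. Tail bud and presomitic mesoderm markers, 7 positive and 9 negative of 16, ranged from -0.12 to 0.27 in wild types and from -0.06 to -0.03 in heterozygotes. Heart markers, 15 positive and 3 negative of 18, ranged from -0.11 to -0.02 and from -0.08 to 0.21, with a smallest limma adjusted p of 0.173. Yolk sac endoderm markers spanned -1.41 to 0.78 in wild types and -2.27 to 1.52 in heterozygotes, with 8 positive and 11 negative of 19. All 11 tested primitive erythroid markers had negative differences, with a median of -1.24 that was -1.97 and 0.54 by scan day. Their levels spanned 0.12 to 1.16 in wild types and -2.21 to 0.73 in heterozygotes, lowest in heterozygote 1. Endothelial markers ranged from -0.14 to 0.06 and from -0.02 to 0.13, and trophoblast and decidua markers, of which 3 of 13 were below background on every array, from -0.18 to 0.03 and from 0.03 to 0.08. RNA quality was read from the Gapdh control as its log2 signal at the 3 prime end less that at the 5 prime end, which was 0.841 to 1.04 in wild types and 0.682 to 0.806 in heterozygotes. The same measure on the actin control overlapped, at 0.737 to 0.838 and 0.676 to 0.812. The part of RNA quality in the differences above was not tested.

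**Figure D5:**
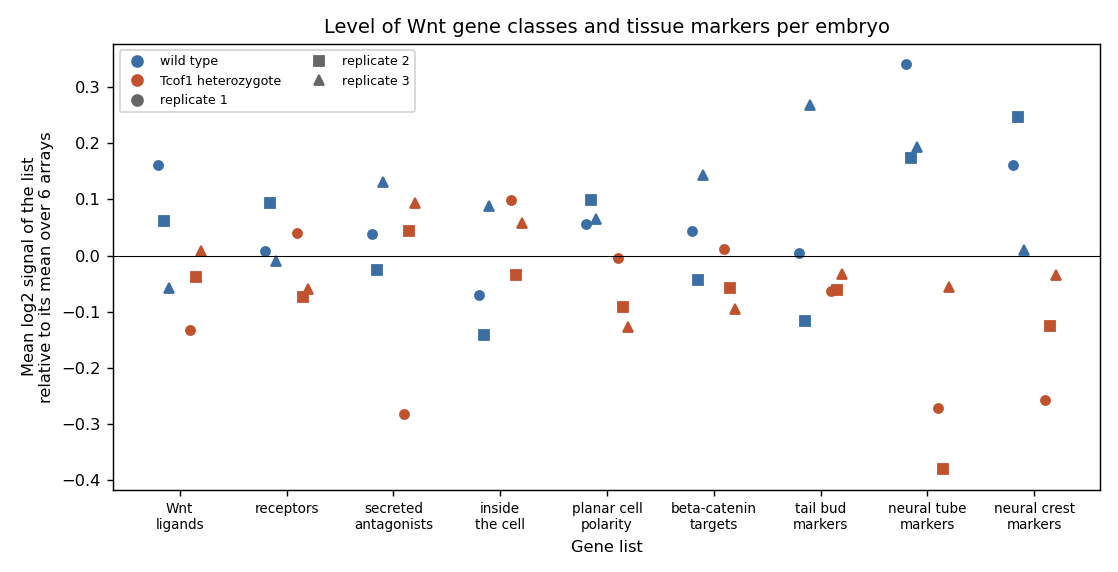
Mean log2 signal of each gene list relative to its mean over all 6 arrays, with 1 point per embryo, coloured by genotype and shaped by replicate number. As deposited, the neural tube and neural crest markers and the planar cell polarity genes lie lower in all heterozygotes. The ligand, receptor, antagonist and intracellular Wnt genes overlap between genotypes. Levels with equal array medians were not computed.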

How the data were processed

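Per the labels' protocols, 100 ng of total RNA per embryo was amplified in 2 cycles and 20 µg of cRNA was hybridised. The authors deposited a linear intensity for every probe set, computed in GCOS according to the submitters' processing notes, which name no version or algorithm in the fields used here. Other deposited files are instrument records with no expression value; scan day and module were read from them.

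The 64 control probe sets were left out. Values were taken as log2(signal + 1.87), 1.87 being the 10th percentile, which understates changes of dim genes. Probe sets in the lowest 40% by mean signal (under 14.5) were not tested. The rest were fitted across all probe sets with limma 3.58.1 (lmFit, eBayes with an intensity trend; R 4.3.3) on genotype alone with two-sided tests; p was adjusted by Benjamini-Hochberg over 27022 probe sets and called at 0.05. A contrast between scan days was fitted as an interaction. Background is the highest signal of the bacterial control probe sets Dap, Lys, Phe, Thr and Trp on each array, 13.5 or lower on all 6. The fit was tested on simulated data. Names come from the platform annotation; 43 of 43 matched RefSeq by gene identifier and 0 changed. Figures used matplotlib 3.10.9.

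The members, gene lists and alternatives were chosen with earlier results of these data known. Named in full are the 4 genes of each role with the smallest p and all intracellular ones. In each list of other pathway genes and targets, the 2 genes with the smallest p are named. Of the tissue marker lists, 2 such genes are named for the neural tube alone. Fzd6, Wnt4, Wnt5a, Fzd4 and Fzd7 were given in more detail after their values were seen. Alternatives were the pseudocount, scaling, filter, variance prior, array weights, replicate number or scan day as a block, Xist as a covariate, the first scan day alone, each array left out and the mean of all probe sets. Same-numbered embryos did not deviate together (correlations of -0.077, -0.109 and -0.024), so numbers were not taken as pairs. With 3 arrays per genotype, their number limits the precision.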

Additional observations from a re-analysis of the deposited data

How the results depend on the processing

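In limma 0 of the tested Wnt genes passed at an adjusted p under 0.05 in the fit as reported and in all 19 alternatives, the replicate block among them (0 genes); 4 had an unadjusted p under 0.05 as reported. The smallest adjusted p of any named Wnt gene over the alternatives was 0.292. Of 320 values of 17 named genes under the alternatives, 315 kept their direction. The filter, the variance prior and the replicate and scan-day blocks left each gene's log2 difference unchanged by construction. Part of this count was therefore fixed in advance, and most of these genes were chosen by smallest p in the same data. Axin2 turned to -0.015 with Xist as a covariate and ranged from -0.143 to 0.188 when 1 array was left out. Axin1 ranged from -0.006 to 0.09 in that way and was -0.459 as the mean of its probe sets. Wnt8a, Wnt8b and Wnt9a gave no value with the lowest 60% left out. The count of 9 genes without overlap was 5 with equal array medians, where Lrp6, Fzd8, Fzd6 and Ctnnb1 overlapped, and 23 on the first scan day alone. Leaving out 1 array gave 9 to 15, the highest without wild-type embryo 3. Fewer arrays overlap less by construction. With equal array medians 5.06% of all tested probe sets lay lower without overlap and 3.74% higher. Such shares were not computed for fewer arrays. The median over all Wnt genes was -0.0141 once Xist was a covariate; in first-day arrays alone it was -0.163, and ligands and receptors were at -0.278 and -0.163. With 1 array left out the medians ranged from -0.203 to -0.056 for ligands (lowest without wild-type embryo 3), from -0.146 to -0.0119 for receptors (lowest without wild-type embryo 3, highest without wild-type embryo 1), from -0.301 to 0.148 for antagonists and from 0.0297 to 0.157 for intracellular genes, which were at 0.156 with the mean of all probe sets. Beyond the arrays left out and the overlap by construction, the cause was not tested.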

Other observations

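These values were picked out after they were seen. Sfrp5, a secreted antagonist of foregut and heart, was highest in wild type 1 and heterozygote 2, at 195 and 196, against 127 and 164 in wild types 2 and 3 and 111 and 120.0 in heterozygotes 1 and 3. Wild type 1 and heterozygote 2 also had the lowest mean log2 level of yolk sac endoderm markers, at -1.41 and -2.27, against 0.68 to 1.52 in the other 4 embryos. A dimmer Sfrp5 probe set did not follow this order, with 30.3, 14.2 and 35.4 in wild types and 35.4, 28.1 and 39.4 in heterozygotes. The part of yolk sac in the Sfrp5 signal was not tested.

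Wild type 3 had the highest signal of any embryo for the brightest probe sets of Axin2 (389), Dkk1 (193) and Dkk3 (66.0). The second probe sets of Dkk1 and Dkk3 were instead highest in heterozygote 2, at 74.6 and 62.3 against 72.9 and 57.5 in wild type 3. It also had the highest level of tail bud and presomitic mesoderm markers, at 0.27 against -0.12 to 0.01 in the other embryos. Axin2 differed between genotypes by 0.39 among female and -0.43 among male embryos, and Dkk1 by 0.52 and -0.23. Heterozygote 1 was the single female heterozygote. Wild type 3 was both the single male wild type and the single one scanned on the second day, so sex and scan day cannot be told apart among wild types.

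The dim ligand genes Wnt16 and Wnt2b, which were not tested, read 16.7, 17.4 and 20.0 and 5.80, 5.55 and 10.1 in wild types 1, 2 and 3. In heterozygotes 1, 2 and 3 they read 9.37, 1.07 and 15.2 and 3.55, 0.795 and 3.65. Wnt2b stayed under the bacterial controls on every array, and Wnt16 did so on 2 of 6. Among untested further probe sets of other ligand genes, those of Wnt5a and Wnt9a were lower in all heterozygotes than in all wild types. They were above background on 4 and 1 of the 6 arrays. The untested one of Wnt7b was higher in all heterozygotes, and those of Wnt7a, Wnt8b and Wnt9b overlapped. The share of all untested probe sets without overlap was not computed.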
